A study of Homo sapiens with 3 samples.

Results

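The G2/M and mitosis genes examined here are 50 genes for mitotic cyclins, kinases, checkpoint and kinetochore proteins, kinesins, cytokinesis factors and the ubiquitin machinery of anaphase. They were chosen by name, as all probe sets annotated to exactly 1 symbol that is one of the 50, out of 19775 named genes on the array. All 50 were found, with 98 of the 54675 probe sets. The cells were MDA-MB-231, an established basal-type breast carcinoma line usually described as lacking estrogen receptor. All groups first spent 4 h in 10% serum stripped of steroids with charcoal, and then received vehicle (0.1% ethanol), estradiol at 1 µM or tamoxifen at 1 µM for 3 h. Each group held 1 Affymetrix array, so no difference below has a replicate spread, an interval or a p-value.

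Cells that approach mitosis build up cyclin B and CDK1, whose activity is switched on by the CDC25 phosphatases and reinforced by the kinases PLK1 and AURKA. The spindle checkpoint, with MAD2L1, BUB1B and TTK, restrains CDC20 until every kinetochore is attached, after which the anaphase-promoting complex destroys securin (PTTG1) and cyclin B. Many of these genes are transcribed together late in the cell cycle, under the DREAM and B-MYB complexes and FOXM1, so their RNA is widely used as a readout of how many cells are dividing. A bulk array cannot tell fewer dividing cells from less RNA per cell.

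The promoters of these genes carry shared letters that the choice of the genes did not use. RefSeq promoter windows (GRCh38.p14) of 300 bases, from 250 before the gene start to 50 after it, were at hand for 43 of the 50 genes, in 55 windows. They were searched on both strands for the cell cycle homology region CHR, TTTGAA or TTCGAA, and for CCAAT, the core of the NF-Y site. A CHR match stood in 36 of the 55 windows (65.5%), against 16.4% of all 35116 windows, and a CCAAT match in 41 (74.5%), against 34.6%. Both stood in 30 windows (54.5%), against 6.38% of all. Matches to the E2F words TTTCGCGC and GCGGGAAA stood in 3 windows (5.45%, against 2.11%), and TATAAA in 3 (5.45%, against 11.5%). A match is a string of letters and not a shown site. Windows of 1 gene can overlap, and 7 of the 43 genes had several.

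**Figure D1:**
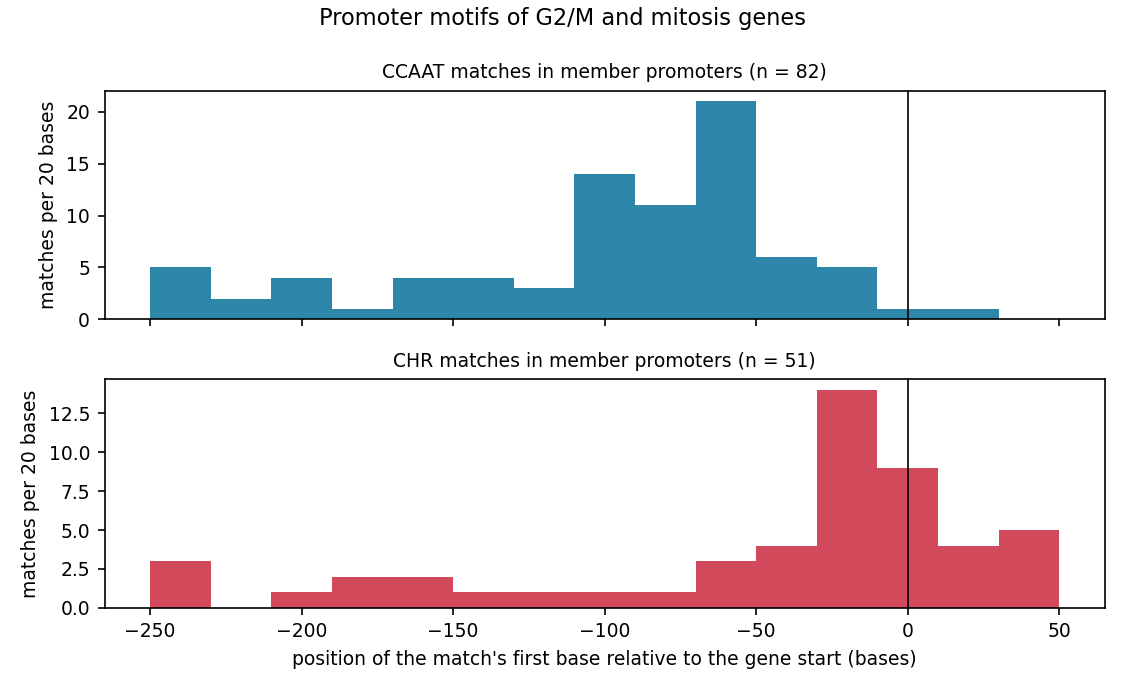
Position of each CCAAT match (upper panel, 82 matches) and each CHR match (lower panel, 51 matches) in the 55 promoter windows, in bases from the gene start (0, vertical line), counted in bins of 20 bases. CHR matches crowd at the start, with 29 of 51 between -50 and 20, and CCAAT matches lie upstream, with 46 of 82 between -110 and -50.

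The windows of 4 genes are shown because the results turn on 3 of them and PLK1 has the plain arrangement, 1 CCAAT followed by 1 CHR. They lie at chr16:23678639-23678938, plus strand (PLK1), chr11:28108107-28108406, minus strand (KIF18A), chr17:40417847-40418146, minus strand (TOP2A) and chr17:8210176-8210475, minus strand (AURKB, 1 of its 2 windows). Each is written 5′ to 3′ on the strand of its gene, with CCAAT and CHR matches on either strand in capitals, so that ATTGG is CCAAT and TTCAAA is TTTGAA read from the other strand.
PLK1: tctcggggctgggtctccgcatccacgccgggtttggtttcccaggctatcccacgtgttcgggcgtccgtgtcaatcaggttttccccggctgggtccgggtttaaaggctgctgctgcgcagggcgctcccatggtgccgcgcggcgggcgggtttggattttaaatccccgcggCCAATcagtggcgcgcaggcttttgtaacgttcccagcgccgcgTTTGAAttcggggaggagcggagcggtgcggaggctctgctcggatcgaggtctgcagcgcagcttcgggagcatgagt
KIF18A: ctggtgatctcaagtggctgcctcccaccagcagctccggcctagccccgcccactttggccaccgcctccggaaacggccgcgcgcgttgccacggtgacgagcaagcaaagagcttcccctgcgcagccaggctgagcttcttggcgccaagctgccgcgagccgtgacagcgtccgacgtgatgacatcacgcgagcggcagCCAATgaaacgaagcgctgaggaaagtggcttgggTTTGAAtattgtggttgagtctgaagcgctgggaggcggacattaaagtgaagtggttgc
TOP2A: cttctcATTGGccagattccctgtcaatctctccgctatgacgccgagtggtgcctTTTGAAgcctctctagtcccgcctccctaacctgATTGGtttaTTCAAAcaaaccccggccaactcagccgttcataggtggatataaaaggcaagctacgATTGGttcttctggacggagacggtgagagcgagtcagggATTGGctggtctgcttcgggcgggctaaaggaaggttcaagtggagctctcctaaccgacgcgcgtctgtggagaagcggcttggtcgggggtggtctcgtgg
AURKB: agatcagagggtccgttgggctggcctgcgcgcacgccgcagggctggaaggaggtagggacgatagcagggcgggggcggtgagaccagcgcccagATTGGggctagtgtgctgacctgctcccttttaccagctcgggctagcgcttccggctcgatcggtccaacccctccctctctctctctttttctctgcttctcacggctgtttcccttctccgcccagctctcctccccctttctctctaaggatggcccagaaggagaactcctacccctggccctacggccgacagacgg
The CCAAT and CHR matches began at -73 and -29 in PLK1 and at -45 and -10 in KIF18A. TOP2A held 4 CCAAT matches and 2 CHR matches, and the AURKB window held 1 CCAAT match and no match to CHR.

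The deposited values are log2 values relative to an unstated baseline, so only differences between arrays at 1 probe set are compared. Base 2 and the direction, higher meaning more RNA, were taken from the named method and are not stated with the values. Brightness was read from the binary steps in which the numbers are stored, and 79 of the 98 probe sets, from 49 of the 50 genes, lay above a floor corresponding to a log2 level of 4. Of these genes 34 lay in the brightest band (levels of 8 to 16) and 15 in the band of 4 to 8. INCENP, the scaffold of the chromosomal passenger complex, lay below the floor with its single probe set, at 0.11 in vehicle, -0.20 with estradiol and 0.22 with tamoxifen. Each gene is represented by its brightest band, averaged where that band held several of its probe sets. Of the probe sets for ribosomal protein genes 107 of 121 passed the floor, and of those for olfactory receptors 16 of 107. Of 15 markers of this line or of basal breast cells 14 were above it, against 4 of 10 luminal, 1 of 10 leukocyte and 5 of 10 fibroblast and endothelial markers. ESR1, the estrogen receptor gene itself, was among those 4, through 1 of its 9 probe sets.

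The vehicle column had a narrower scale than the ligand columns. Over the 49 genes its SD was 0.18, against 0.41 for estradiol and 0.44 for tamoxifen, and over all 12171 genes above the floor the SDs were 0.20, 0.48 and 0.49. Where a gene lay over 0.5 from the baseline in the mean of the ligand arrays, its vehicle value was a median of 0.38 of that mean for 11 mitotic genes and 0.34 for 2396 genes. Gene differences from vehicle are therefore given as deposited and, for the genes described in full, also with the vehicle value doubled. Which setting is closer to the true difference was not tested, and the comparison of tamoxifen with estradiol does not use the vehicle column.

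**Figure D2:**
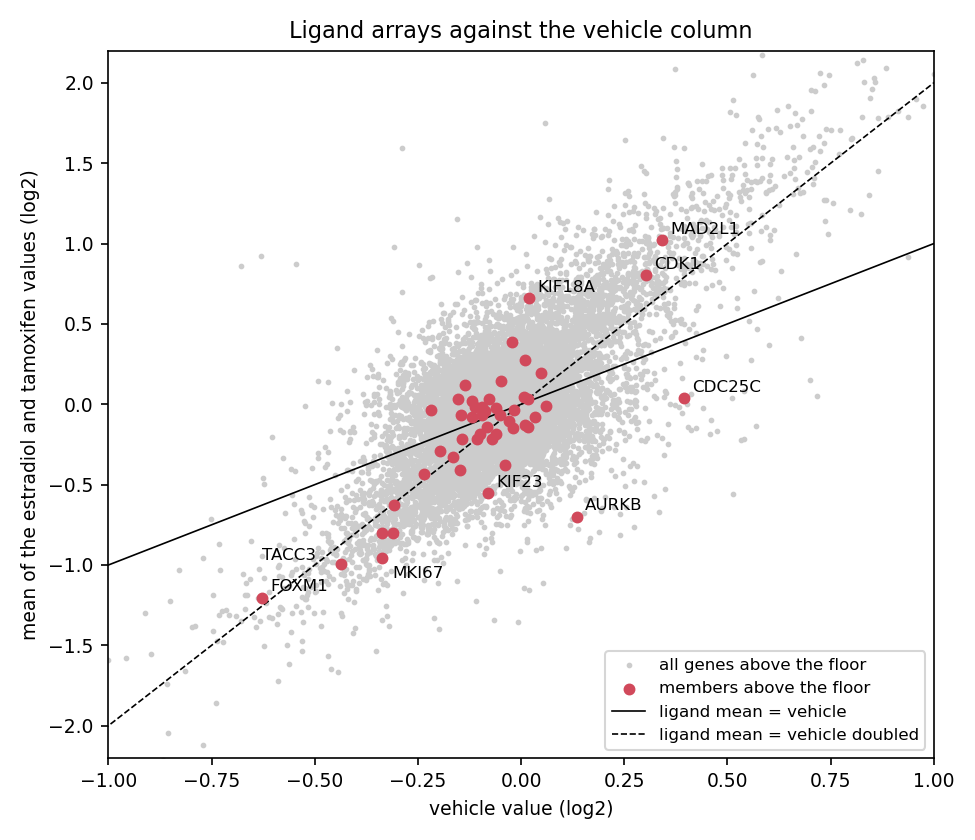
Mean of the estradiol and tamoxifen values (vertical axis) against the vehicle value (horizontal axis), both log2, for all genes above the floor (grey) and the 49 mitotic genes (red); 53 genes lie outside the axes. The solid line marks equal values and the dashed line a ligand mean at 2 times the vehicle value: FOXM1 and TACC3 lie next to the dashed line, and AURKB, CDC25C and KIF18A lie away from both.

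**Figure D3:**
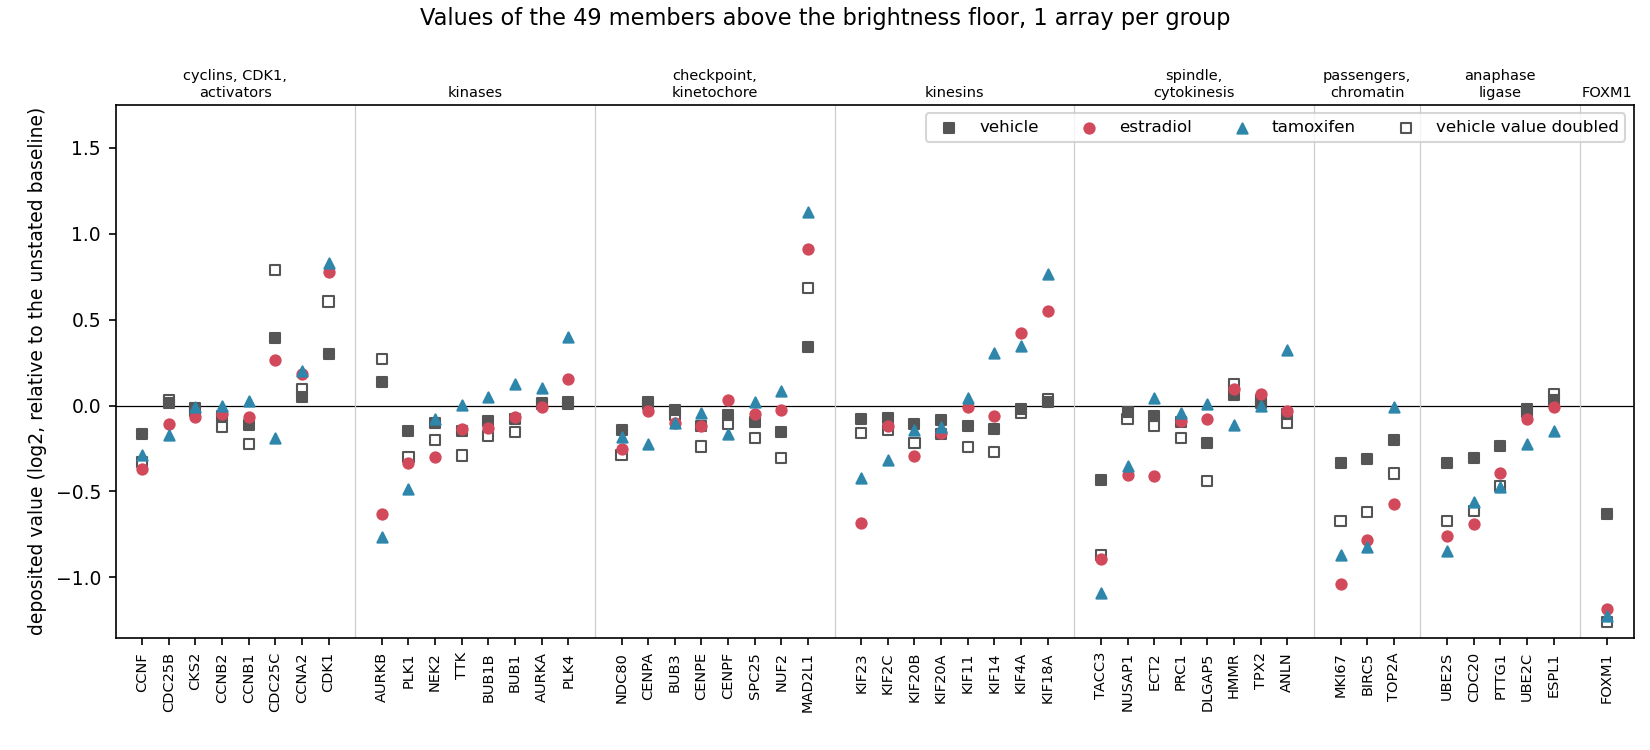
Deposited values (log2, relative to the unstated baseline) of the 49 genes above the floor, grouped by role, with 1 array per group: vehicle (squares), estradiol (circles), tamoxifen (triangles) and the vehicle value doubled (open squares). Most genes lie within 0.5 of the baseline on every array, FOXM1, TACC3 and MKI67 lie lowest and MAD2L1 and CDK1 highest.

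Between tamoxifen and estradiol at equal dose, the mitotic genes differed by a small median. None of the 49 genes was 1.5-fold higher with tamoxifen, against 1.58% of all 12171 genes, and none was 1.5-fold lower, against 2.2%, shares that amount to about 1 gene each in a list of this length. The median difference, tamoxifen minus estradiol, was 0.05 on the log2 scale, against -0.02 over all genes. Tamoxifen gave the higher value in 31 of the 49 genes (63.3%), against 46.7% of all genes. The median absolute difference was 0.13, against 0.16 over all genes, and between probe sets of 1 gene this difference had a pooled SD of 0.25 over 3461 genes, and of 0.20 over the 15 mitotic genes with several in their brightest band. That SD describes probe sets on the same arrays and not the spread between cultures.

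The gene furthest up with tamoxifen was TOP2A, the DNA topoisomerase that untangles chromosomes and whose promoter is shown above. Its values were -0.20 in vehicle, -0.58 with estradiol and -0.01 with tamoxifen. The tamoxifen value was 1.48-fold above the estradiol value (log2 difference 0.57), just within the 1.5-fold rule, and the estradiol value was the lowest of the 3 arrays. Its probe sets 201291_s_at and 201292_at differed by 0.75 and 0.39, while 237469_at, below the floor, differed by -0.39. From vehicle, 201291_s_at differed by -0.67 with estradiol and 0.08 with tamoxifen, so there the estradiol array stood apart. For 201292_at these were -0.09 and 0.29, so there the tamoxifen array stood apart. The gene value differed from vehicle by -0.38 and 0.19, and by -0.18 and 0.39 with the vehicle doubled. ECT2, the exchange factor that activates RhoA in the cleavage furrow, stood at -0.06, -0.41 and 0.04 in vehicle, estradiol and tamoxifen, a difference of 0.46. In this gene value the estradiol array alone was low, but the second ECT2 probe set above the floor, 234992_x_at, went the other way (-0.32). ANLN, the furrow scaffold anillin, stood at -0.05, -0.03 and 0.33, a difference of 0.36 that its dimmer probe set shared (0.29). KIF14, a kinesin of the midbody, stood at -0.14, -0.06 and 0.31, with both probe sets in 1 direction (0.51 and 0.22). In these last 2 gene values vehicle and estradiol lay close together and the tamoxifen array was high. The dimmer ANLN probe set, 1552619_a_at, stood at 0.43, 1.34 and 1.63, so there both ligand arrays were high. KIF23, the motor of the centralspindlin complex, stood at -0.08, -0.68 and -0.42, a difference of 0.26. From vehicle, the ECT2 gene value differed by -0.35 with estradiol and 0.10 with tamoxifen. That of ANLN differed by 0.02 and 0.38, and that of KIF14 by 0.07 and 0.44. With the vehicle doubled these were -0.29 and 0.16 (ECT2), 0.07 and 0.42 (ANLN), and 0.21 and 0.58 (KIF14).

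The gene furthest down with tamoxifen was CDC25C, a phosphatase that activates CDK1. It stood at 0.39 in vehicle, 0.26 with estradiol and -0.19 with tamoxifen, so the tamoxifen value was 1.37-fold below that of estradiol (-0.45), with the tamoxifen array alone below the baseline. This rests on 1 of its 3 probe sets, in the band of 4 to 8, and the other two, below the floor, had the same sign (-0.25 and -0.28). The related CDC25B differed by -0.06, and KIF2C, a microtubule depolymerase, HMMR, a spindle protein, TACC3, CENPF and CENPA differed by -0.19 to -0.21.

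By role, the kinases had the highest median among the 5 groups of 8 genes. The smaller chromosome passenger and chromatin group, with 3 genes above the floor, had a slightly higher one (0.17). Tamoxifen exceeded estradiol in 6 of 8 kinases (median 0.16), in 6 of 8 kinesins (0.10), in 5 of 8 checkpoint and kinetochore genes (0.07), in 6 of 8 genes of the cyclin and CDK1 group (0.05) and in 5 of 8 spindle and cytokinesis genes (0.05). Of the anaphase group it did so only in CDC20 (0.13), while PTTG1, UBE2S, UBE2C and the separase gene ESPL1 lay between -0.08 and -0.14. Beside CDC25C, the other genes of the mitotic switch named in full lay closer together. CCNB1, cyclin B1, stood at -0.11, -0.06 and 0.03 in vehicle, estradiol and tamoxifen, and CCNB2 at -0.06, -0.05 and 0.00. AURKA stood at 0.01, -0.01 and 0.10, a difference between the ligands of 0.11, and PLK1 at -0.15, -0.33 and -0.49, a difference of -0.15. From vehicle, CCNB1 differed by 0.05 with estradiol and 0.14 with tamoxifen, AURKA by -0.02 and 0.10, and PLK1 by -0.18 and -0.34. With the vehicle doubled these were 0.16 and 0.25 (CCNB1), -0.02 and 0.09 (AURKA), and -0.03 and -0.19 (PLK1). Between the ligands, the transcription factor gene FOXM1 differed by -0.04. The proliferation marker MKI67 differed by 0.17 (its 3 dimmer probe sets by -0.02, -0.10 and -0.26). BIRC5, the passenger protein survivin, differed by -0.04 (its 4 probe sets above the floor by -0.24 to 0.31).

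**Figure D4:**
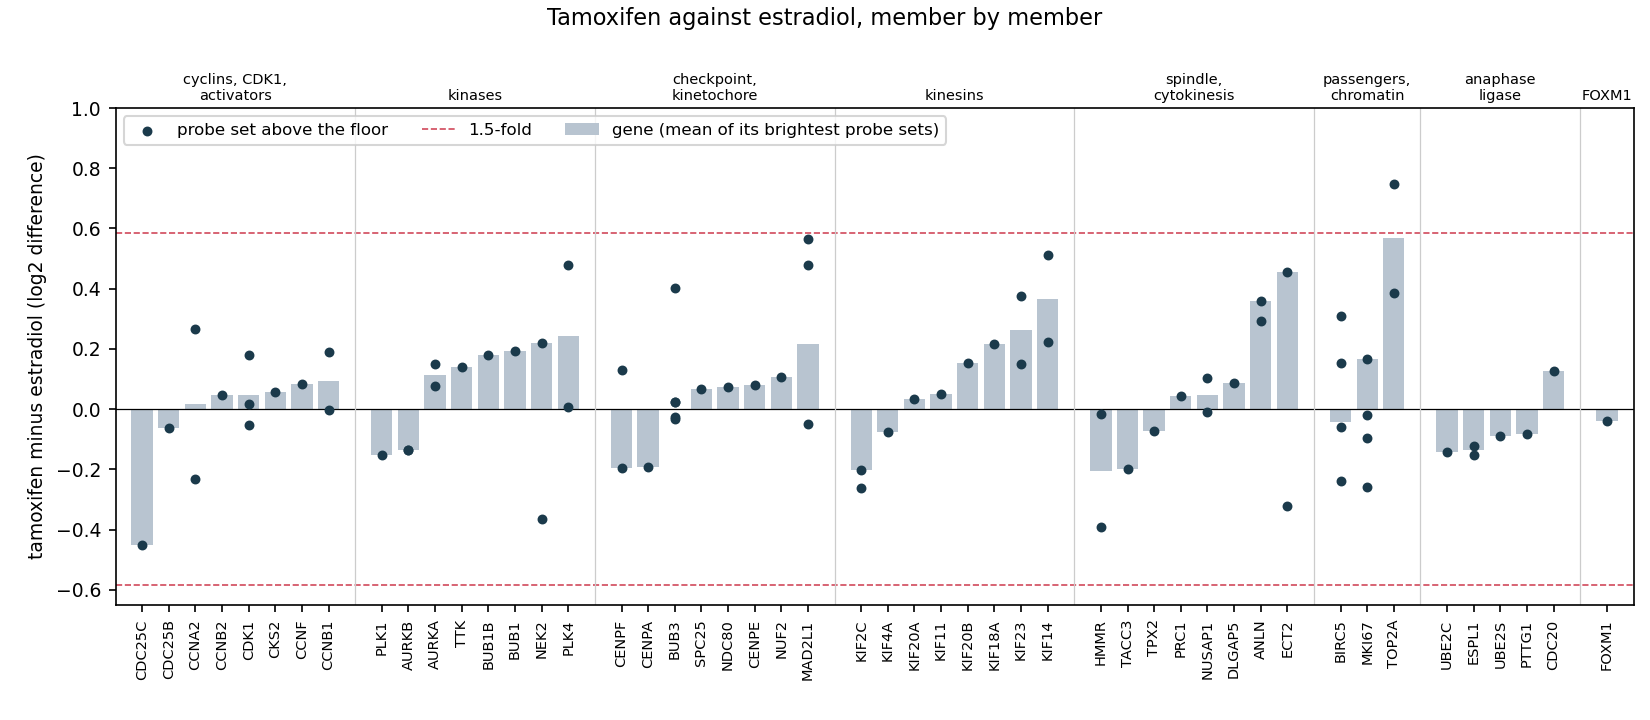
Tamoxifen minus estradiol (log2 difference) for the 49 genes, by role, with bars for the gene value, points for each probe set above the floor and dashed lines at 1.5-fold. All bars lie within the lines, from -0.45 (CDC25C) to 0.57 (TOP2A), and the probe sets of MAD2L1, NEK2, ECT2 and BIRC5 lie over 0.5 apart.

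Against vehicle, estradiol gave no mitotic gene 1.5-fold higher, against 5.77% of all genes, and 3 genes lower, 6.12% of the 49 against 2.63% of all. The 3 were AURKB, MKI67 and KIF23. The median difference was -0.04, against 0.02 over all genes, and 29 of the 49 genes (59.2%) lay below 0, against 46.7% of all genes. With the vehicle doubled the median was 0.03 (0.07 over all genes), 23 genes (46.9%, against 39.0%) lay below 0, and AURKB alone passed the rule downward (2.04%, against 1.94% of all), with none upward (against 4.36%). Spiked-in bacterial poly-A RNAs, which enter a sample ahead of labelling, differed by a median of 0.99 over 27 probe sets between estradiol and vehicle and by 0.84 between tamoxifen and vehicle, and their part in these differences was not tested. Between the ligands the spikes differed by -0.16.

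AURKB, the kinase of the chromosomal passenger complex that corrects faulty attachments, was lowest in both comparisons with vehicle and in both settings. It stood at 0.14 in vehicle, -0.63 with estradiol and -0.77 with tamoxifen. Both ligand arrays were low, by 1.70-fold for estradiol (-0.77) and 1.87-fold for tamoxifen (-0.90), and with the vehicle doubled by 1.87-fold (-0.90) and 2.05-fold (-1.04). Probe set 209464_at fell short of 1.5-fold with estradiol (-0.50 and, for tamoxifen, -0.64), while 239219_at passed 2-fold with both (-1.03 and -1.17), and both lie in the band of 4 to 8. In the doubled setting both probe sets lay between -0.86 and -1.08 with either ligand. MKI67 stood at -0.34, -1.04 and -0.87 in vehicle, estradiol and tamoxifen, differences from vehicle of -0.70 and -0.53. After doubling these were -0.36 and -0.20, within the rule. All 4 of its probe sets were above the floor, and as deposited they ran from -0.55 to -0.70 with estradiol and from -0.53 to -0.85 with tamoxifen. In the doubled setting they spread from -0.03 to -0.70 and from -0.05 to -0.80. KIF23 had differences of -0.60 and -0.34, and of -0.52 and -0.26 with the vehicle doubled. Its probe sets disagreed: 244427_at differed from vehicle by -1.09 and -0.94, and 204709_s_at by -0.11 and 0.26. Doubling the vehicle gave -0.82 and -0.68, and -0.22 and 0.15.

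With tamoxifen, 2 of the 49 genes were 1.5-fold higher than in vehicle (4.08%, against 6.94% of all genes) and 3 were lower (6.12%, against 4.3%). KIF18A and MAD2L1 were the higher genes, and AURKB, TACC3 and FOXM1 the lower. The median difference was -0.02, against 0.02 over all genes, with 24 of 49 genes above 0, against 52.2% of all. With the vehicle doubled the median was 0.08 (0.06 over all genes), 19 genes (38.8%, against 43.1%) lay below 0, KIF18A alone passed upward (2.04%, against 7.13%), and AURKB and CDC25C downward (4.08%, against 3.65%).

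KIF18A, a kinesin that dampens chromosome movement at the plus ends of kinetochore microtubules, stood at 0.02 in vehicle, 0.55 with estradiol and 0.77 with tamoxifen. Both ligand arrays were high, with differences of 0.53 and 0.75 (1.68-fold with tamoxifen), and since its vehicle value was near 0 the doubled setting gave almost the same, 0.51 and 0.73. It rests on 1 probe set, of a type that can cross-react. MAD2L1, the checkpoint protein that binds CDC20, stood at 0.34, 0.91 and 1.13, with differences of 0.57 and 0.79 that became 0.23 and 0.44 with the vehicle doubled. Its probe sets disagreed with estradiol, where 1554768_a_at differed from vehicle by 1.30, 203362_s_at by -0.15 and 236312_at by -0.11. With tamoxifen all 3 were higher than vehicle (1.25, 0.33 and 0.46). In the doubled setting the same probe sets stood at 0.57, -0.11 and 0.10 with estradiol and at 0.52, 0.37 and 0.66 with tamoxifen. KIF14 had tamoxifen differences of 0.44 as deposited and 0.58 doubled, just within the rule.

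FOXM1, a transcription factor that drives many G2/M genes, was far below the baseline on every array, at -0.63 in vehicle, -1.18 with estradiol and -1.22 with tamoxifen. As deposited it was lower by 0.56 and 0.59 on the ligand arrays (differences of -0.56 and -0.59). Doubling the vehicle made the differences 0.07 and 0.04, so its direction turned. TACC3, a spindle protein of the clathrin and ch-TOG complex, stood at -0.44, -0.89 and -1.09, with differences of -0.46 and -0.66 that became -0.02 and -0.22. Each of these genes had 1 probe set on the array, and that of FOXM1 is of a type that can cross-react. CDC25C differed from vehicle by -0.13 with estradiol and -0.58 with tamoxifen, just within the rule, and by -0.53 and -0.98 (1.97-fold) with the vehicle doubled. Its probe sets below the floor did not share this. There 216914_at differed from vehicle by 0.28 and 0.03, and by 0.42 and 0.17 with the vehicle doubled. For 217010_s_at these were -0.11 and -0.39, and -0.03 and -0.31.

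Other members far from the baseline differed from vehicle mainly in the deposited setting. CDK1, the mitotic kinase itself, stood at 0.30 in vehicle, 0.78 with estradiol and 0.83 with tamoxifen, with differences of 0.48 and 0.52 that became 0.17 and 0.22 with the vehicle doubled. CDC20, the activator of the anaphase-promoting complex, stood at -0.31, -0.69 and -0.56, with differences of -0.38 and -0.25 that became -0.07 and 0.05. BIRC5 stood at -0.31, -0.78 and -0.82, with differences of -0.47 and -0.51 that became -0.16 and -0.20. In these 3 gene values, as deposited, both ligand arrays lay on the same side of vehicle. Probe sets of CDK1 and BIRC5 disagreed. CDK1 203213_at differed from vehicle by -0.05 and 0.13, and by -0.08 and 0.10 with the vehicle doubled. The other CDK1 probe sets above the floor, 203214_x_at and 210559_s_at, are of types that can cross-react. They differed from vehicle by 0.70 to 0.77 as deposited and by 0.24 to 0.37 with the vehicle doubled. The 4 probe sets of BIRC5 above the floor ran from -0.55 to -0.11 with estradiol and from -0.63 to 0.16 with tamoxifen, and with the vehicle doubled from -0.38 to 0.20 and from -0.62 to 0.33. Without the probe set types that can cross-react, BIRC5 differed from vehicle by -0.13 and -0.01. All 5 genes of the anaphase group lay below vehicle with either ligand, with medians of -0.16 and -0.24, and 4 of 5 with the vehicle doubled, with medians of -0.07 and -0.17. UBE2S, which extends ubiquitin chains on substrates of the complex, went from -0.42 and -0.51 to -0.09 and -0.17. Doubling the vehicle changed the sign of 8 of the 49 differences for estradiol and 6 for tamoxifen.

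In their gene values the other members of the kinase group mostly stood near the baseline. PLK4, the kinase of centriole duplication, stood at 0.01 in vehicle, 0.16 with estradiol and 0.40 with tamoxifen. Its 2 probe sets above the floor did not share the difference between the ligands (0.48 and 0.01). In 204886_at, at -0.04, -0.19 and 0.28, the tamoxifen array was the high one. In 204887_s_at, at 0.06, 0.51 and 0.51, both ligand arrays were high. The checkpoint kinases BUB1, BUB1B and TTK lay within 0.15 of the baseline on every array, with tamoxifen above estradiol by 0.19, 0.18 and 0.14. NEK2, a kinase that separates centrosomes, stood at -0.10, -0.30 and -0.08, with a difference between the ligands of 0.22. Its dimmer probe set above the floor, 211080_s_at, stood far from the baseline (0.76, 1.21 and 0.85) and went the other way (-0.37). This probe set differed from vehicle by 0.45 and 0.09, and by -0.31 and -0.67 with the vehicle doubled. The gene value differed from vehicle by -0.20 and 0.02, and by -0.10 and 0.12 after doubling.

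In the checkpoint and kinetochore group the differences between the ligands in the gene values ran from -0.20 (CENPF) to 0.22 (MAD2L1). A dimmer CENPF probe set above the floor, 209172_s_at, went the other way (0.13). The MAD2L1 probe sets differed between the ligands by -0.05 (1554768_a_at), 0.48 (203362_s_at) and 0.56 (236312_at, the dimmer one). NDC80, NUF2 and SPC25, subunits of the complex that grips microtubules, had tamoxifen minus estradiol differences of 0.07, 0.11 and 0.07, and CENPE, a kinetochore motor, had 0.08. BUB3, the partner of the BUB kinases, had 0.00, with arrays at -0.03, -0.10 and -0.10. This is the mean of 4 probe sets in its brightest band. A dimmer BUB3 probe set, 237245_at, stood at -0.44, -1.24 and -0.84, a difference between the ligands of 0.40. It differed from vehicle by -0.80 with estradiol and -0.40 with tamoxifen, and by -0.36 and 0.04 with the vehicle doubled. Among the motors, KIF4A, a chromokinesin, stood at -0.02 in vehicle, 0.42 with estradiol and 0.35 with tamoxifen, so both ligand arrays were high, by 0.45 and 0.37 (0.47 and 0.39 with the vehicle doubled). KIF11, which pushes spindle poles apart, differed between the ligands by 0.05, KIF20A by 0.03 and KIF20B by 0.15.

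In the spindle group, NUSAP1, which bundles microtubules near chromatin, stood at -0.04, -0.40 and -0.35, with differences from vehicle of -0.36 and -0.32 (-0.33 and -0.28 with the vehicle doubled). Both ligand arrays were low, but through probe set 219978_s_at (-0.76 and -0.65), while 218039_at differed by 0.03 and 0.02. Doubling the vehicle gave -0.72 and -0.62, and 0.07 and 0.06. DLGAP5, a spindle assembly factor, lay above vehicle by 0.14 and 0.23, and by 0.36 and 0.45 with the vehicle doubled. PRC1, which crosslinks the central spindle, and TPX2, the activator of AURKA, lay within 0.1 of the baseline on every array. Of the cyclin group, CCNA2 stood at 0.05, 0.19 and 0.20, CCNF at -0.17, -0.37 and -0.29, and CKS2, a small subunit of CDK complexes, at -0.02, -0.06 and -0.01. The 2 probe sets of CCNA2 disagreed. Estradiol minus vehicle was 0.45 in 203418_at and -0.17 in 213226_at (0.20 and -0.02 with the vehicle doubled). Between the ligands they differed by -0.23 and 0.26.

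As deposited, both ligands lay below vehicle in 22 of the 49 genes (44.9%, against 34.7% of all genes) and above it in 17 (34.7%, against 40.2%). After doubling they lay below it in 15 (30.6%, against 28.9%) and above it in 22 (44.9%, against 46.7%). These comparisons share 1 vehicle column. In 7 genes as deposited vehicle lay between the ligands with tamoxifen higher, TOP2A and ECT2 among them (14.3%, against 12.0%), and in 3 with estradiol higher (6.12%, against 13.1%).

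In 5 further lists of G2/M genes, drawn from textbook knowledge with 102 genes, 99 lay above the floor. Between tamoxifen and estradiol their median difference was 0.05 and 1 gene passed the rule downward, CCNA1, the germline cyclin A (-0.59), 1 of 99 beside 2.2% of all genes, and none upward (against 1.58%). Estradiol exceeded vehicle 1.5-fold in CENPI (1.10) and ANAPC10 (0.59) and lay lower in GTSE1 (-0.84) and CENPB (-0.81), with a median of -0.09. Each direction is 2.02% of the 99, against 5.77% and 2.63% of all genes. With the vehicle doubled the median was 0.05, CENPI stood at 1.20, and CCNA1 (0.63) and GADD45A (0.60) also passed (3.03%, against 4.36%), with no gene downward (against 1.94%). Tamoxifen exceeded vehicle in SMC1A (0.75), ANAPC10 (0.72), SKA1 (0.62) and CENPI (0.59) and lay lower in PSRC1 (-0.79), CENPM (-0.76) and NCAPH2 (-0.62), with a median of 0.02. These are 4.04% and 3.03% of the 99, against 6.94% and 4.3% of all genes. With the vehicle doubled the median was 0.10, and SMC1A (0.73), CENPI (0.68), ZW10 (0.75) and DSN1 (0.68) passed upward (4.04%, against 7.13%), with none downward (against 3.65%).

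Among these lists cohesin and condensin, the rings that hold and compact sister chromatids, had the highest median between the ligands. Tamoxifen exceeded estradiol in 16 of 19 genes (median 0.18), against 46.7% of all genes, with SMC3 at 0.53, SGO2 at 0.44, NCAPH at 0.34 and NCAPD3 at 0.33. Of the 19, 0 passed 1.5-fold, against 1.58% of all genes upward and 2.2% downward. The list was singled out after its values were seen. The kinetochore list had a median of 0.00 over 27 genes, with DSN1 at 0.53, CENPI at -0.52, CENPK at 0.50 and CENPM at -0.38. The list of other spindle, motor and cytokinesis genes had -0.02 over 28, with CKAP2 at 0.55 and CKAP5 at -0.30. The DREAM and B-MYB list, with the NF-Y subunits, had a median of 0.01 over 15 genes, and RBL1, the pocket protein p107, differed by 0.56, LIN54 by -0.41, TFDP2 by -0.35 and RBL2 by 0.32. G1/S and replication genes had a median of 0.07 over 39 genes, led by MCM10 (0.51), E2F3 (0.51), CCNE2 (0.49) and ORC6 (0.44). None of the 39 passed the rule, beside the same 1.58% and 2.2% of all genes. Immediate early and mitogen genes had a median of -0.19 over 13 genes, with ATF3 at -0.78 and MYC at -0.38. ATF3 was 1 of 13 past the rule downward, against 2.2% of all genes. Reference genes had a median of -0.05 over 15.

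**Figure D5:**
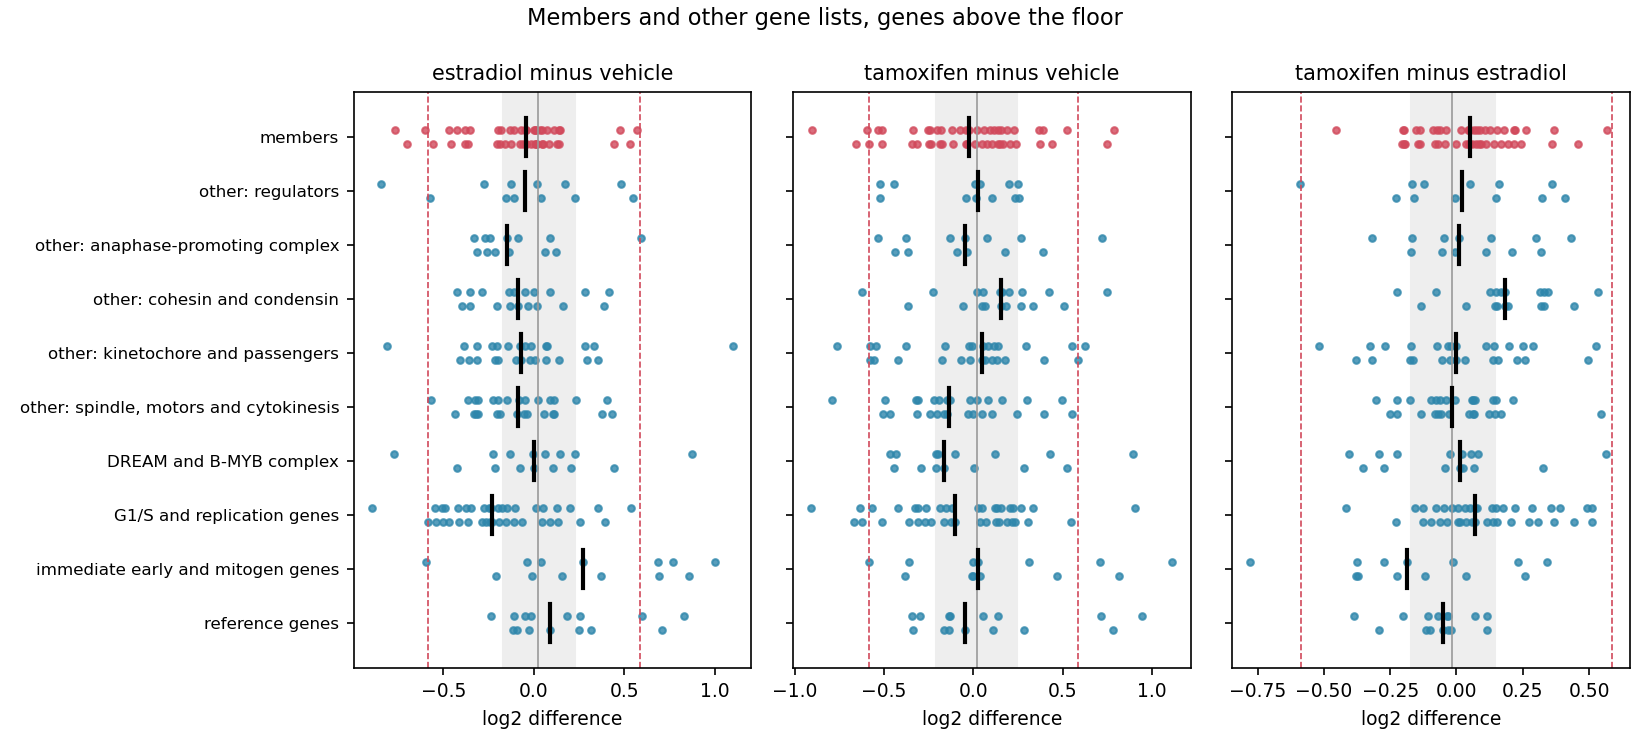
Log2 differences of the mitotic genes (red) and of other gene lists (blue), 1 point per gene above the floor, as deposited; thick bars are medians, grey bands the middle 50% of all 12171 genes, thin grey lines their median and dashed lines 1.5-fold. The mitotic genes centre near 0 in each panel (medians -0.04, -0.02 and 0.05), the G1/S genes lie lower with estradiol against vehicle (-0.23, but 0.10 with the vehicle doubled), and the immediate early genes lie higher there (0.27).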

How the data were processed

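Biotin-labelled RNA of 3 MDA-MB-231 samples was hybridised to Affymetrix arrays, 1 per group, per the labels' protocols. The authors deposited log2 values for 54675 probe sets. Their method was RMA, per the submitters' processing notes, without a version, and the centring on a baseline was inferred from the values. No depth applies, and the number of arrays limits the precision.

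Probe sets were named through the supplied platform annotation: 41097 had 1 symbol, 1801 several, and 11777 are unnamed here; only the first were used. Python 3.11.15 with pandas 2.3.3 read each value as a single-precision number. The finest binary step over the 3 columns, with vehicle shifted by 1 step, set the brightness band, and values printed with too few digits were skipped. The step reading was tested on simulated data whose vehicle values were divided by 2, as the reading presumes. That test cannot show whether the deposited values were built that way. Differences were set beside a 1.5-fold size rule, and no test was run.

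Named in full were CCNB1, CDK1, PLK1, AURKA, CDC20, FOXM1, MKI67, TOP2A and BIRC5, members past 1.5-fold, the 6 largest absolute differences per comparison, and up to 4 genes per other list by tamoxifen minus estradiol. Other genes were named after their values were seen. Members, lists and alternatives were chosen with earlier results of these data known. RefSeq promoters were not used here for AURKA, BIRC5, BUB3, FOXM1, TPX2, TTK and UBE2C. Whether a listed probe set also binds other transcripts was not analysed here.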

Additional observations from a re-analysis of the deposited data

How the results depend on the processing

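The medians over the 49 genes kept within 0.1 (log2) of their main values under all alternatives tried, from -0.08 to 0.03 for estradiol minus vehicle, from -0.11 to 0.08 for tamoxifen minus vehicle and from 0.03 to 0.08 for tamoxifen minus estradiol. For tamoxifen minus estradiol the count past 1.5-fold was 0 in each direction under every alternative. Counts against vehicle changed, and beyond the fewer genes or the stricter rule of a setting the cause was not tested. With the vehicle doubled, the genes lower with estradiol went from 3 to 1 and those higher with tamoxifen from 2 to 1. A floor at 8, which left 34 genes, gave 1 lower with estradiol, 1 higher with tamoxifen and 0 lower with tamoxifen. A size rule of 2-fold gave 0 lower with estradiol and 0 higher and 0 lower with tamoxifen. The median over all probe sets above the floor gave 1 gene higher with estradiol, and leaving out probe set types that can cross-react, which left 32 genes, gave 0 higher with tamoxifen. In that last setting 3 genes were still lower with each ligand, but not the same genes. MKI67 and FOXM1 had no value there, and BUB3 passed with estradiol (-0.80) and KIF23 with tamoxifen (-0.94). CDC25C, CDC20, ANLN and ECT2 also rest on such types alone. A lower brightness limits CDC25C, TACC3, FOXM1, AURKB, KIF18A and KIF23, whose values lie in the band of 4 to 8. No paired analysis was possible because each group held 1 array, and for the same reason no array could be left out.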

Other observations

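Probe sets of 1 mitotic gene sometimes lay far apart relative to the baseline. Among the 21 genes with several probe sets above the floor, the estradiol values lay over 1 apart (log2) in 7: MAD2L1, NEK2, ANLN, KIF23, BUB3, CDK1 and CCNA2. MAD2L1 had the widest spread, with 1554768_a_at at 0.72, 2.02 and 1.97 in vehicle, estradiol and tamoxifen and 203362_s_at at -0.04, -0.19 and 0.29. In CDK1, 203214_x_at stood at 0.41, 1.18 and 1.13 and 210559_s_at at 0.47, 1.17 and 1.19, while 203213_at stood at 0.04, -0.01 and 0.17. In ANLN, 1552619_a_at stood at 0.43, 1.34 and 1.63, against -0.05, -0.03 and 0.33 for 222608_s_at. KIF23 showed the opposite sign, with 244427_at at -0.27, -1.36 and -1.21 against 0.11, -0.01 and 0.37 for 204709_s_at.

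Mitotic genes with a CHR match in a promoter window had a median tamoxifen minus estradiol difference of 0.08 over 32 genes above the floor, against -0.03 over the 10 genes with a window and no match. For CCAAT the medians were 0.05 over 35 genes and 0.08 over 7. These are descriptions of 1 array per group, and no difference between the groups of genes was tested.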
